A study of Mus musculus with 12 samples.

Results

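The 76 genes described here carry the symbols of cytosolic ribosomal proteins, and they were measured in the root-forming part of the mouse molar. They were chosen by symbol, as Rpl or Rps followed by digits and an optional final a, or as Rplp0, Rplp1, Rplp2 or Rpsa, without the rows named as pseudogenes and without the S6 kinase genes. The rule took 46 genes of the large subunit, 3 of them of its P stalk, and 30 genes of the small subunit, out of 25899 genes in the table. Genes of core proteins that are named otherwise, such as Rps4x and Fau, were not members. The row named Rpl24 may measure another gene, and it is kept in all counts of the 76. Its identifier spans chr16:55973883-56008913, with a coding length of 3150 bases. The RefSeq start matched to the symbol Rpl24 lies outside that span (window chr16:55966260-55966289). RNA was sequenced from the apical portion of first mandibular molars of C57BL/6 mice at postnatal day 4, in 6 libraries of Nfic-/- mice (null) and 6 of littermate Nfic+/- mice (controls). The controls thus lacked 1 functional copy of Nfic, and no Nfic+/+ library was analysed. The labels name no Cre or other driver, and they do not state whether a library is 1 mouse or a pool, although the series speaks of 6 pairs. Libraries of each genotype carry the numbers 5 to 10, which were read as the 6 littermate pairs that the series describes.

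A ribosome has a small subunit, which reads the messenger RNA, and a large subunit, which joins the amino acids, and each ribosome carries most of its proteins in a single copy. The genes for these proteins are scattered over the genome and are expressed in step in most tissues. Their transcripts start with a run of pyrimidines, the terminal oligopyrimidine (TOP) tract, through which mTOR signalling and the RNA-binding protein Larp1 set their translation and stability. Nfic encodes a nuclear factor I transcription factor that is required for molar roots to form. Growing roots, like other tissues with dividing and secreting cells, need many ribosomes.

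Pyrimidine runs around the annotated transcript start were more frequent in these genes than over all starts, though most member starts had no long one. RefSeq starts (GRCm38.p6) were matched by symbol for 55 of the 76 genes, with 65 starts. The following windows run from 15 bases before to 15 bases after the start, 5′ to 3′ on the gene's own strand, with the longest unbroken run of C and T in capitals. For a gene with several starts, the start with the longest run was taken. The first 6 were chosen to show runs of 10 bases or more in proteins of both subunits and of the stalk, and the last pair to show starts without one. They lie at chr2:26910792-26910821 (Rpl7a, plus strand), chr3:130730323-130730352 (Rpl34, minus), chr7:45128731-45128760 (Rpl13a, minus), chr7:141447636-141447665 (Rplp2, plus), chr4:86857353-86857382 (Rps6, minus), chr17:33955651-33955680 (Rps18, minus), chr10:128549154-128549183 (Rpl41, minus) and chr7:99483695-99483724 (Rps3, minus).
Rpl7a: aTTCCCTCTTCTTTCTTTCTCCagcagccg
Rpl34: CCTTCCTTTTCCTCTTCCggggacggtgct
Rpl13a: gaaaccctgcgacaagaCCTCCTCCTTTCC
Rplp2: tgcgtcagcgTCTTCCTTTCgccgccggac
Rps6: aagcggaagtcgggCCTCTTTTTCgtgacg
Rps18: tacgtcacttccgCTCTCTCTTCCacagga
Rpl41: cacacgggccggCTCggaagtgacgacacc
Rps3: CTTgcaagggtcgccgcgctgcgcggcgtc
A run of 8 or more C or T, on the gene's own strand, was in the 30-base window of 26 of the 65 member starts (40.0%). Over all 32851 RefSeq starts the share was 12%. A run could lie before the start, after it or across it. CCGGAAGT, the letters that factors of the ETS family recognise, was on either strand of the 300-base window (250 before to 50 after the start) of 11 member starts (16.9%), against 3.89% of all starts. These are letter matches in windows around annotated starts, which can lie some bases from the start used in the molar.

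The tissue was checked first. Enamel matrix genes took 5.60% to 23.1% of the reads in genes, and Amelx, which encodes amelogenin, took 3.40% to 13.5% alone. Values were deposited on a log2 scale as RPKM (reads per kilobase of exon, scaled to library depth). Depth was inferred from genes at the lowest value in every library, with that value taken as 0.9 reads. It came to 70.2 to 96.4 M reads per library. Fabp1, an intestinal transcript, stood at 1.72 to 3.50 RPKM in libraries 8 and 9 of both genotypes and at 0.0170 to 0.0232 RPKM elsewhere, and the 8 skeletal muscle markers summed to 49.2 RPKM in null library 9 against 3.77 to 9.13 RPKM in the others. Repeated numbers in the column names were read as 2 sequencing sheets, libraries 5 to 7 and 8 to 10. Nfic itself was at 11.3 to 24.5 RPKM in controls (median 15.9) and at 7.90 to 16.5 RPKM in nulls (median 11.5), lower in the null of 6 of 6 pairs, though the groups overlapped. Its difference was -0.52 in log2(RPKM + 1) (exact 2-sided permutation test over 924 assignments, p = 0.0303). That p was above 0.05 without control library 6 (0.0519), control library 10 (0.0628), null library 5 (0.0541) or null library 6 (0.0541).

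No ribosomal protein gene passed the threshold between null and control molars, and the genes as a group differed more from library to library than between genotypes. All 76 had a mean of 1 RPKM or more and were tested with limma among 12094 genes, on log2(RPKM + 1), with genotype as the only term. By limma with Benjamini-Hochberg adjustment 0 of 76 passed an adjusted p of 0.05, and so did 0% of all genes, with a smallest adjusted p of 0.934. At an unadjusted p under 0.05, 1 of 76 was higher in nulls and 0 were lower, where over all genes 2.62% were higher and 2.72% lower. Of the 76 genes 61 stood above 0, against 48.9% of all genes, and their median difference was 0.04 (log2), against -0.0028 over all genes. No member had groups that did not overlap, a pattern found in 0.157% of all genes.

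The interval of each difference shows what sizes remain possible. Differences ran from -0.22 (Rps12) to 0.24 (Rps14) in log2(RPKM + 1), with a median standard error of 0.132, against 0.113 over all genes. The 95% intervals lay within 1 log2 of 0 for 76 of 76 genes and within 0.5 log2 for 70. The typical interval reached 0.294 to either side (median), so a smaller difference in a typical member could not be told from 0 with 6 libraries a group.

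**Figure D1:**
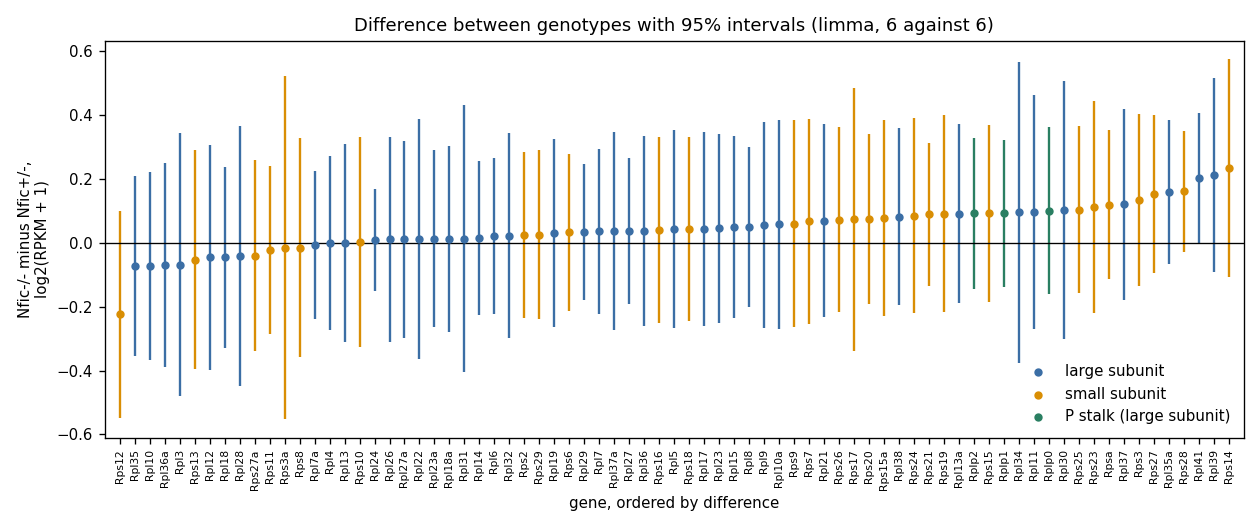
Difference between genotypes (Nfic-/- minus Nfic+/-, log2(RPKM + 1)) for 75 of the 76 genes, ordered by size, with 95% intervals from limma (6 libraries against 6). Points are coloured by subunit, and most lie slightly above 0 with intervals that reach across it.

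The direction depended on single libraries. The null molar had the higher value for 75 of 76 genes in pair 5, 2 in pair 6, 57 in pair 7, 15 in pair 8, 73 in pair 9 and 72 in pair 10. The row named Rpl24, which may measure another gene, was the exception in pair 5 (-0.0069). With Rpl41 it made up the 2 in pair 6 (0.03 for Rpl24). Summed over the 76 genes, the null to control ratio of RPKM was 1.25 in pair 5, 0.723 in pair 6, 1.03 in pair 7, 0.955 in pair 8, 1.30 in pair 9 and 1.15 in pair 10. Most genes (47 of 76) were higher in the null of 4 pairs, and 1 gene, Rpl41, was higher in 6. Without control library 6 the median difference was 0.12 and 72 genes stood above 0 (62.6% of all genes). Without control library 5 it was -0.02 with 30 above 0 (34.2% of all genes), and without null library 10 it was -0.0051 with 34 (39.2% of all genes). Without both libraries numbered 6 it was 0.16 with 74 above 0 (74.1% of all genes). The share over all genes thus moved with these counts. In libraries 5 to 7 alone 13 genes stood above 0 (median -0.06), against 41.4% of all genes, and in libraries 8 to 10 alone 72 did (median 0.16), against 55.3%. A genotype by sheet interaction term in limma gave members a smallest adjusted p of 0.9997 (Benjamini-Hochberg over all genes). Without the libraries numbered 8 and 9, which held the intestinal transcripts, 40 genes stood above 0 (41.2% of all genes) with a median of 0.0074.

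Across libraries the genes rose and fell as a block. Summed RPKM of the 76 genes was lowest in control library 5 (5776) and highest in control library 6 (9356), a ratio of 1.62, so both ends of the range were controls. The other controls had 6427 (library 7), 7427 (8), 6444 (9) and 7374 (10), and the nulls had 7245 (5), 6765 (6), 6646 (7), 7096 (8), 8373 (9) and 8458 (10). Means were 7134 ± 1257 in controls and 7430 ± 794 in nulls (SD, n = 6 each), a difference smaller than either SD. Null libraries 9 and 10 came next below control library 6, and the range of the nulls lay within that of the controls. Control library 6 held the highest value of 49 genes and control library 5 the lowest of 52. Control library 6, null library 9 or null library 10 held the highest value of 71 of the 76. The first principal component of the centred values took 72.8% of their variance, and 75 of 76 genes had the same sign on it. This is a description of 12 libraries that share normalisation to total reads. The movement was not confined to these genes. The median of all 12094 tested genes, each centred on its own mean, was also lowest in control library 5 (-0.22) and highest in control library 6 (0.20).

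**Figure D2:**
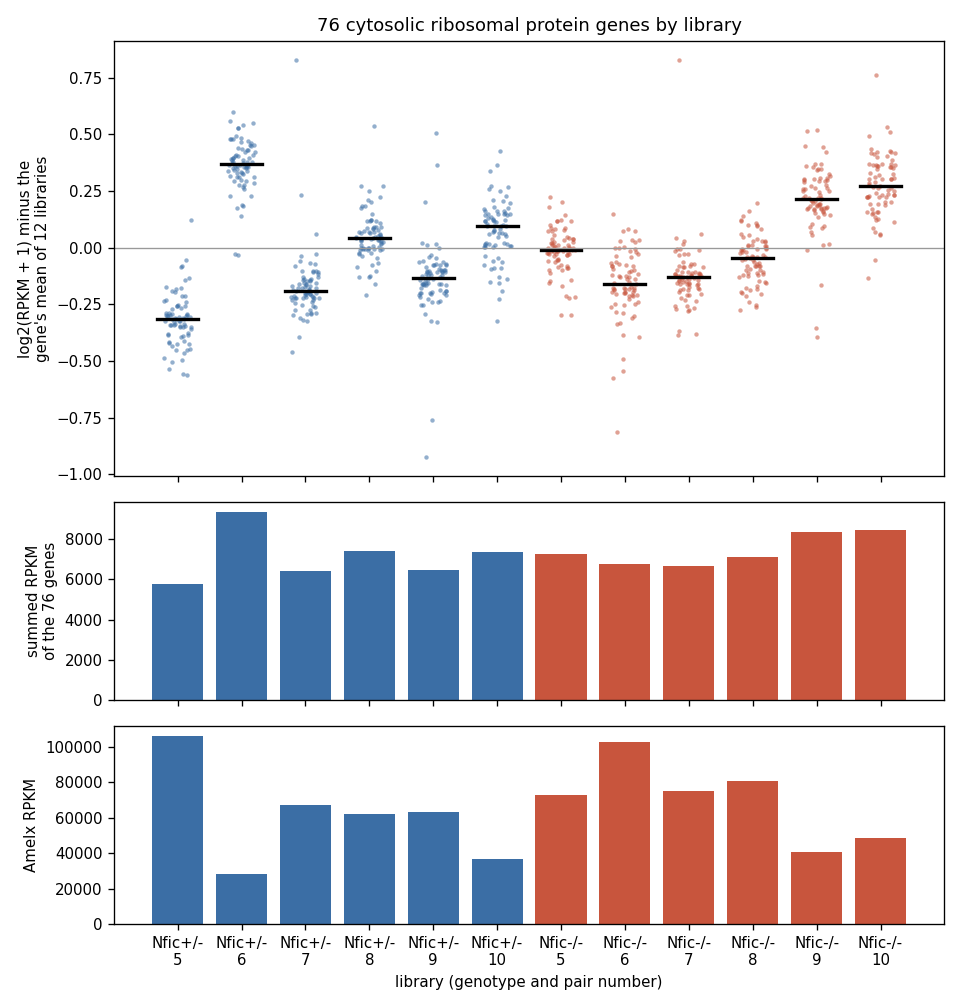
Top, each gene's log2(RPKM + 1) minus its mean of 12 libraries, with 1 point per gene and a bar at the median of the library. Middle, summed RPKM of the 76 genes, and bottom, Amelx RPKM, in the same libraries (blue, Nfic+/-; red, Nfic-/-). The points shift together from library to library, with medians from -0.32 in control 5 to 0.37 in control 6, and the library with the most Amelx has the smallest ribosomal sum.

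At the ends of the range, enamel transcripts stood the other way. Amelx stood at 106179 RPKM in control library 5, the library lowest in ribosomal protein transcripts, and at 28240 RPKM in control library 6, the highest. Libraries between them followed this order in part. Null libraries 9 and 10 had Amelx of rank 3 and 4 from the lowest, and ribosomal sums of rank 3 and 2 from the highest. Other libraries departed further from it. Null library 6 had the second highest Amelx (102366 RPKM) and a ribosomal sum of rank 8 of 12, and control library 10 had the second lowest Amelx (36657 RPKM) and a sum of rank 5. The part of enamel transcripts in the ribosomal protein levels was tested only by rescaling. The ribosomal protein genes took 1.23% to 1.92% of gene reads, a ratio of 1.56, and 1.56% to 2.03% of the reads outside the 7 enamel matrix genes, a ratio of 1.30. With the values rescaled without the enamel genes, 48 of 76 stood above 0 between genotypes (median 0.02), against 40.6% of all genes (median -0.02), and 0 passed. Centring each library on the median of all tested genes gave 66 above 0 (median 0.07), against 61.1% of all genes (median 0.03), and again 0 passed.

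Other genes of the translation machinery set the scale of this movement. The median level of the ribosomal protein genes ran over 0.68 log2 from the lowest to the highest library. The median of all tested genes ran over 0.42, also from control library 5 to control library 6. Across 21 other genes with TOP transcripts, such as elongation factors, the range was 0.70, from control library 5 to control library 6. Eef1a1, the elongation factor that brings aminoacyl-tRNA to the ribosome, had 831 RPKM in control library 5 and 1338 RPKM in control library 6. For 39 ribosome biogenesis factors the range was 0.48, for 22 genes of the mTOR, Larp1 and S6 kinase axis 0.45, and for 75 mitochondrial ribosomal protein genes 0.39. The differences between these ranges were not tested. Several cell type lists stood to 1 side between genotypes, with 0 genes past the threshold. Of the tested markers 8 of 8 for dental mesenchyme (median -0.49), 14 of 14 for the cell cycle (-0.23), 7 of 7 endothelial (-0.39) and 8 of 8 macrophage genes (-0.42) were below 0, and 10 of 10 for dental epithelium (0.30) were above. Odontoblast and dentin markers were below 0 in 9 of 10 (median -0.49). At an unadjusted p under 0.05 (limma), 6 odontoblast and dentin, 4 mesenchyme and 1 endothelial markers were lower. On the higher side there were 4 epithelium markers. Over all genes 2.72% were lower and 2.62% higher at that p. Dental mesenchyme markers (9 genes) summed to 153 to 321 RPKM in controls and 101 to 295 RPKM in nulls, dental epithelium markers (11) to 1610 to 2494 and 1922 to 2818 RPKM, and cell cycle genes (14) to 34.7 to 113 and 34.3 to 78.2 RPKM. In whole tissue, fewer cells of a type and less RNA per cell cannot be told apart, and the part of the cell makeup in the ribosomal protein levels was not tested.

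Between genotypes the related lists also had 0 genes past the threshold. Of the 21 other TOP genes 10 stood above 0 (median -0.0045), of the 39 biogenesis factors 20 (median 0.0051) and of the 22 genes of the mTOR axis 10 (median -0.0034). Mitochondrial ribosomal protein genes, whose products form the separate ribosome of mitochondria, stood above 0 in 67 of 75 (median 0.05), with 1 at an unadjusted p under 0.05, Mrps33. Among core proteins outside the naming rule, Fau (a fusion that gives S30) differed by -0.09 and Rps4x by -0.0083. Gnb2l1, which encodes the scaffold Rack1 on the small subunit, had 133 to 227 RPKM in controls and 145 to 200.4 RPKM in nulls, and its difference was 0.09. Rpl22l1 and Rps27l, paralogues of Rpl22 and Rps27, differed by 0.11 and 0.12, and Rpl36al, a paralogue of Rpl36a, by 0.13.

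Levels per length differed widely among proteins that a ribosome mostly carries in equal number. Mean RPKM ran from 4.54 (Rpl36a) to 816 (Rplp1), a ratio of 179.6. The median was 37.7 RPKM, with 18 genes at 100 RPKM or more, 49 between 10 and 100 and 9 under 10, and the 10 highest genes held 58.5% of the sum. Small subunit genes had a median of 58.5 RPKM and large subunit genes without the stalk a median of 27.4 RPKM. With the stalk genes counted in the large subunit, the summed large to small ratio ran from 1.51 to 1.64 over 12 libraries, at 1.60 ± 0.0278 in controls and 1.58 ± 0.0556 in nulls (SD, n = 6 each). Without the stalk it ran from 1.06 to 1.15, and null libraries 9 and 10 were lowest on both counts.

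**Figure D3:**
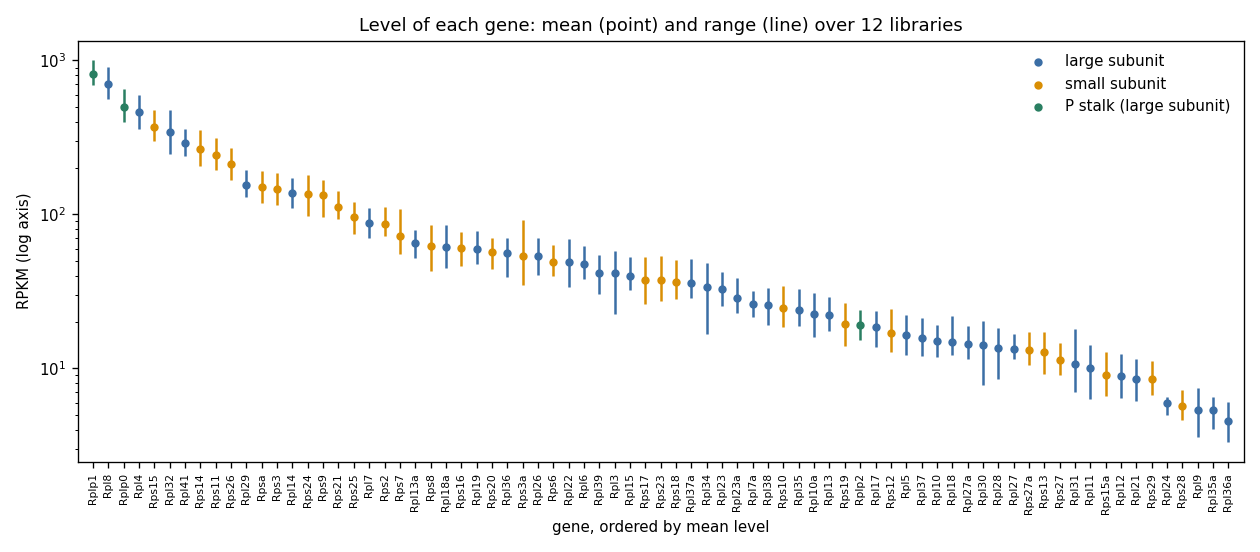
Mean RPKM of 75 of the 76 genes (point) and the range of each over 12 libraries (line) on a log axis, ordered by level and coloured by subunit. The order spans from Rplp1 at 816 to Rpl36a at 4.54 RPKM, a spread far wider than the range of any single gene over libraries.

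Many of these genes have near-identical processed pseudogenes, and how the authors' counting treated reads that fit several copies is not stated in the labels. The median member shared 58.7% of its 50-base words with transcripts of other annotated genes, and the median of 75 mitochondrial ribosomal protein genes was 3.01%. Annotated pseudogenes holding such words numbered 8.5 in the median and 121 at most (Rpl7a), against a median of 0 for the mitochondrial genes. The 19 genes lowest in level shared 64.1% of their words (median) and had 10 such pseudogenes, and the 19 highest shared 38.1% and had 4. Across the 76 genes Spearman's rho of level with shared words was -0.41, a description across genes that are not independent. Rpl8, at 699 RPKM, shared 7.86% of its words and Rps3, at 146 RPKM, 2.96%, while Rplp1, the highest gene, shared 60.0% and Rpl36a, the lowest, 85.5%. The level of a gene with many copies is therefore uncertain as an absolute value.

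**Figure D4:**
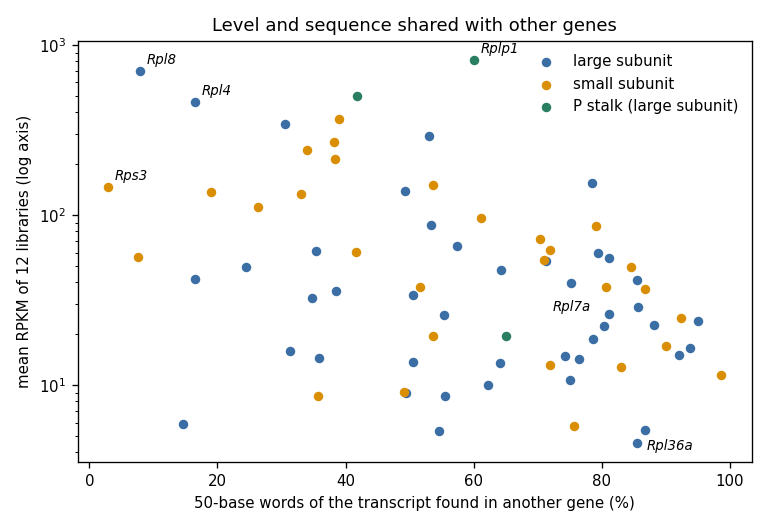
Mean RPKM (log axis) against the percentage of a gene's 50-base words that also occur in another annotated gene, for 75 of the 76 genes, coloured by subunit. Rpl8 and Rpl4 sit high at the left, Rpl36a low at the right and Rplp1 high in the middle.

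The stalk genes had differences smaller than their standard errors. Rplp0, Rplp1 and Rplp2 encode the acidic P proteins of the stalk, which recruits the elongation factors. Rplp1 had 692, 768 and 1011 RPKM in controls (lowest, median, highest) and 759, 843 and 933 RPKM in nulls. Control library 6 stood alone above all nulls, and the groups overlapped. Its difference was 0.09 log2 (SE 0.103), higher in 4 of 6 pairs. Rplp0 had 399.7, 461 and 649.8 RPKM in controls and 453, 495 and 576 RPKM in nulls, a difference of 0.10 (SE 0.117). Rplp2, at 15.3, 18.2 and 23.9 RPKM in controls and 17.6, 18.9 and 23.8 RPKM in nulls, was far lower per length than its partners and differed by 0.09 (SE 0.106). In each stalk gene control library 6 was highest and control library 5 lowest.

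Rpl41, which encodes the smallest protein of the large subunit, had the smallest p among the 76 genes. Rpl41 (chromosome 10, 128548114 to 128549305, GRCm38) had 241, 261 and 318 RPKM in controls and 267, 311 and 357 RPKM in nulls. The groups overlapped, with null library 9 highest and control library 5 lowest. The difference was 0.20 log2 (SE 0.0912, unadjusted p = 0.0434, limma adjusted p = 0.934), and the null was higher in 6 of 6 pairs, though by 0.0061 in pair 6. Rpl39, another very short protein, near the exit tunnel of the large subunit, had 30.4, 37.0 and 54.8 RPKM in controls and 37.0, 42.2 and 53.3 RPKM in nulls (difference 0.21, SE 0.136). Rps28, a small subunit protein, had 4.64, 5.25 and 6.51 RPKM in controls and 5.64, 5.88 and 7.22 RPKM in nulls (0.16, SE 0.0851), and Rpl35a, whose loss causes Diamond-Blackfan anaemia, had 4.03, 4.99 and 6.14 RPKM in controls and 4.62, 5.67 and 6.56 RPKM in nulls (0.16, SE 0.101). Each of Rpl39, Rps28 and Rpl35a was higher in the null of 5 of 6 pairs, with pair 6 as the exception, and each had overlapping groups.

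In the lower direction the smallest p belonged to Rps12, a small subunit protein. Rps12 had 13.1, 18.4 and 24.4 RPKM in controls and 12.9, 14.9 and 19.5 RPKM in nulls, a difference of -0.22 (SE 0.145, unadjusted p = 0.146). Control libraries 8 and 9 were the highest, and the groups overlapped. Without the libraries numbered 8 and 9 the difference of Rps12 was -0.04. Rpl35, beside the exit tunnel, had 20.3, 23.3 and 32.7 RPKM in controls and 18.8, 23.1 and 28.0 RPKM in nulls (-0.07, SE 0.127). Rpl10, which joins the large subunit late in its maturation, had 11.8, 15.5 and 19.03 RPKM in controls and 12.6, 13.5 and 18.7 RPKM in nulls (-0.07, SE 0.132), and Rpl36a had 3.31, 4.75 and 5.78 RPKM in controls and 3.34, 4.00 and 6.05 RPKM in nulls (-0.07, SE 0.143). Rpl35, Rpl10 and Rpl36a turned above 0 in libraries 8 to 10 (0.04, 0.08 and 0.0011), and Rpl35 did so without control library 6 (0.01).

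Large subunit genes with known roles outside or beside translation showed the same overlap. Rpl5 and Rpl11, whose proteins bind Mdm2 with 5S RNA when ribosome assembly is disturbed and so raise p53, had 16.3 ± 3.45 and 9.74 ± 2.64 RPKM in controls and 16.8 ± 3.13 and 10.3 ± 2.07 RPKM in nulls (SD, n = 6 each). Their differences were 0.04 (SE 0.139) and 0.10 (SE 0.165). Rpl22, an RNA-binding protein that is dispensable for general translation, had 33.8, 46.0 and 69.7 RPKM in controls and 39.2, 45.5 and 64.8 RPKM in nulls, with the nulls inside the range of the controls (0.01, SE 0.169). Rpl38, required in mice for normal axial skeleton patterning, had 24.8 ± 3.46 RPKM in controls and 26.5 ± 4.80 RPKM in nulls (0.08, SE 0.125). Rpl13a, known from the silencing of inflammatory transcripts, had 63.2 ± 11.1 and 67.3 ± 10.3 RPKM (0.09, SE 0.125). Rpl8, at the catalytic centre and the second most abundant of the 76, had 564, 666 and 913 RPKM in controls and 657, 694 and 785 RPKM in nulls (0.05, SE 0.112). Rpl29, among the steadiest members, had 129, 149 and 193 RPKM in controls and 145, 152 and 173 RPKM in nulls (0.03, SE 0.0955). Rpl9, among the lowest, had 3.59, 5.24 and 6.73 RPKM in controls and 4.22, 5.28 and 7.46 RPKM in nulls (0.06, SE 0.145).

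The small subunit gave a like picture. Rps6, the substrate of the S6 kinases, had 39.6, 46.8 and 63.0 RPKM in controls and 46.2, 47.4 and 56.1 RPKM in nulls, with control libraries at both ends (0.03, SE 0.110). Rps3, at the messenger RNA entry, had 115, 134 and 187 RPKM in controls and 130.0, 148 and 178 RPKM in nulls (0.13, SE 0.121). Rpsa, also known as a laminin receptor, had 119, 140.0 and 191 RPKM in controls and 136, 156 and 166 RPKM in nulls (0.12, SE 0.105). Rps14, whose loss is behind the anaemia of the 5q deletion syndrome, had the largest difference of the 76 genes. Its RPKM was 207, 221 and 351 in controls and 219, 273 and 356 in nulls (0.24, SE 0.153, unadjusted p = 0.148). Its 3 highest libraries were null 9, null 10 and control 6, and the groups overlapped. Rps19, the gene most often mutated in Diamond-Blackfan anaemia, had 18.8 ± 4.38 RPKM in controls and 19.9 ± 3.05 RPKM in nulls (SD, n = 6 each), with a difference of 0.09 (SE 0.138). Rps27a, a ubiquitin fusion, had 13.3 ± 2.59 and 12.9 ± 2.45 RPKM (-0.04, SE 0.135), and Rps21, among the steadiest, had 109 ± 17.6 and 115 ± 9.43 RPKM (0.09, SE 0.101).

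A few genes left the shared movement, some of them in both libraries of a pair. After the median of the 76 genes in each library and the gene's own median were taken off, 13 of 912 values lay more than 0.5 log2 from 0, in 6 genes. These genes were singled out after their values were seen, and no test was made. Rps3a, a small subunit protein with the widest spread among members of 10 RPKM or more, had 91.7 RPKM in both libraries numbered 7. Elsewhere it had 34.6 to 58.6 RPKM in controls and 34.9 to 56.5 RPKM in nulls, so the pair stood 1.18 log2 (control) and 1.12 log2 (null) above the shared level while genotypes did not separate (-0.02, SE 0.241). Rpl34 and Rpl30 were low in both libraries numbered 9. Rpl34 had 16.8 RPKM in control 9 and 24.6 RPKM in null 9, the lowest of each group, with departures of -0.90 and -0.72. Rpl30 had 7.76 RPKM and 10.6 RPKM there, also the lowest of each group, with departures of -0.73 and -0.68. Those libraries also held intestinal transcripts, whose part in these values was not tested. Rps12 was high in control libraries 8 and 9 (24.4 and 21.6 RPKM, 0.56 above the shared level in each) and not in their null partners (15.1 and 14.6 RPKM). Rpl3, near the catalytic centre, was low in null 6 (22.6 RPKM, -0.79), null 10 (-0.54) and control 6 (-0.54) and high in control 9 (0.50). Rpl28 was low in null 6 (8.59 RPKM, -0.51). Rpl31, also among the widest in spread, reached 18.1 RPKM in null 10 against 7.04 to 12.9 RPKM in the other libraries, a departure of less than 0.5.

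**Figure D5:**
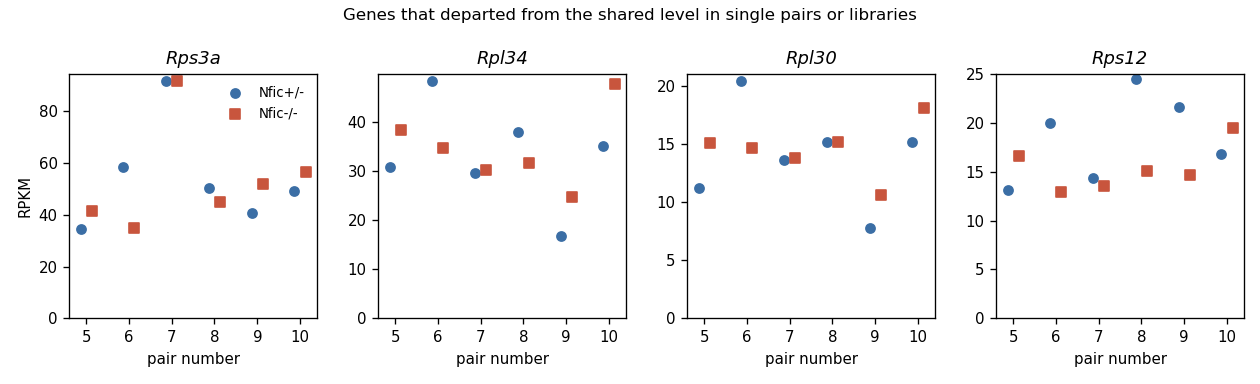
RPKM of Rps3a, Rpl34, Rpl30 and Rps12 by pair number, with circles for Nfic+/- and squares for Nfic-/- libraries. Rps3a is at 91.7 RPKM in both libraries of pair 7, Rpl34 and Rpl30 are lowest in each genotype in pair 9, and Rps12 is highest in the Nfic+/- libraries of pairs 8 and 9, followed by that of pair 6.

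A feature of gene structure that the naming rule did not use was more frequent among these genes. Small nucleolar RNAs, which guide the chemical modification of ribosomal RNA, often lie in introns of ribosomal protein genes. In the GENCODE annotation 30 of the 76 genes (39.5%) held at least 1 of them, 58 in all, against 1.80% of 11140 tested protein-coding genes. Rpl4, which has 5, stood at 359, 451 and 593 RPKM in controls and 396, 448 and 521 RPKM in nulls, a difference of -0.00038 (SE 0.122). The 76 genes lie on 19 chromosomes, with 14 on chromosome 7 and 3 on the X chromosome (Rpl10, Rpl36a and Rpl39).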

How the data were processed

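RNA of 12 apical molar samples was sequenced on an Illumina NextSeq 500, per the labels. Reads were aligned with TopHat2 to mm10, per the submitters' processing notes. For the counting tool, the annotation and the treatment of multiply mapping reads, nothing is given in the sources used here. Per the values, the authors' RPKM were deposited on a log2 scale. Base 2 over exonic length recovers 0.773 to 0.835 of the reads. Values were returned to RPKM and tested as log2(RPKM + 1) with limma 3.58.1 (R 4.3.3; intensity trend, genotype only) for the 12094 genes averaging at least 1 RPKM, with Benjamini-Hochberg adjustment at 0.05. Intervals use 10 degrees of freedom. Nfic was tested by exact permutation. The fit was tested on simulated data. Other settings were the replicate block, pseudocounts, filters, scalings and libraries left out. If libraries of a group were drawn from the same mice or the same pool of mice, p-values measure technical spread only. If each was a pool of different mice, they measure spread between pools.

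The members and lists were chosen with earlier results of these data known. The genes named were the stalk genes and Rpsa, those with the smallest p in each direction, the highest and lowest, the widest and steadiest, and members with textbook roles. Some genes are not reported here by name. Shared 50-base words were counted in GENCODE M21 transcripts, taking for each gene its shortest principal transcript with the longest coding sequence. Same-numbered libraries were taken as pairs from the series text, and their deviations correlated at r = 0.492, 0.0050, 0.310, 0.667, 0.688 and 0.802 for numbers 5 to 10. For numbers 8, 9 and 10 the control library correlated best with its own null partner. For numbers 5, 6 and 7 it correlated best with a null library of another number, so those pairs are less certain. Python 3.11.15 served for the tables and plots.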

Additional observations from a re-analysis of the deposited data

Results flagged for a closer look

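In 60 groups of 6 libraries (the named members and Nfic in each genotype), 3 had 1 library far from the others by Dixon's ratio (the gap to the nearest library divided by the group's range). Chance flags about 1 in 20 groups. Rplp1 in controls had control library 6 at 1011 RPKM, with the next at 811 and the lowest at 692 (ratio 0.627). Rps21 in controls had control library 6 at 142 RPKM, with the next at 110.2 and the lowest at 94.0 (ratio 0.664). Rps28 in nulls had null library 9 at 7.22 RPKM, with the next at 6.06 and the lowest at 5.64 (ratio 0.735).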

How the results depend on the processing

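With the replicate block, which takes same-numbered libraries as pairs, 0 of 12094 genes passed (smallest adjusted p 0.0872) and 0 ribosomal protein genes did (smallest 0.645), so the block changed no call. It gave 0 members at an unadjusted p under 0.05, against 1 without it. No setting, the added ones included, gave a ribosomal protein gene past the threshold. Over all genes 0 passed in every setting but 2, added after the data were seen, which combine the block with a scaling: 30 genes with equal medians of all genes and 585 with equal ribosomal protein medians. The number of members above 0 (61) was 13 in libraries 5 to 7 (41.4% of all genes), 40 without libraries 8 and 9 (41.2%), 74 without the libraries numbered 6 (74.1%), and 15 with equal ribosomal protein medians (15.8%), with or without the block. With 1 library left out at a time it ran from 30 to 72. Members at an unadjusted p under 0.05 in either direction numbered 5 with equal medians of all genes (10.3% of all genes) and 8 with the block added (17.4%). They numbered 3 after quantile normalization (9.82%) and 3 after rescaling without enamel genes (8.70%). There were 9 without control library 6 (7.10%), 9 without the libraries numbered 6 (5.75%) and 3 in libraries 8 to 10 (2.21%). Every other setting gave 0 or 1, against 2.60% to 15.3% of all genes. Signs turned for Rpl35 in libraries 8 to 10 (0.0444) and without the libraries numbered 6 (0.0658), for Rpl10 in libraries 8 to 10 (0.0807), and for Rpl36a in libraries 8 to 10 (0.0011) and without the libraries numbered 6 (0.0445). With 1 library left out at a time Rpl35 ran from -0.127 to 0.0110, the latter without control library 6. The exact p of Nfic with 1 library left out ran from 0.00866 to 0.0628. The cause of these changes was not tested. Counting error was not computed, since only normalised values were used, at an inferred depth of 70.2 M reads or more a library.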
